A study of Mus musculus with 6 samples.

Results

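The genes described here encode the chains of the interferon receptors, the Janus kinases (JAKs) attached to them and the transcription factor Stat2. They are Ifnar1, Ifnar2, Ifngr1, Ifngr2, Jak1, Jak2, Tyk2 and Stat2, 8 of the 44200 gene models in the count table, taken by their symbols. RNA of heart tissue from male C57BL/6 mice was sequenced in 2 groups, old (22 months) and young (2 months), each with 3 samples, from mice kept on normal chow. The labels do not say that the samples of an age are hearts of separate animals, so p-values measure the spread between these samples, which may in part be technical. No treatment or transgene was given for either group. The labels' extraction text names another sample type, abbreviated NRVMs, while each sample is labelled as heart. All 8 cardiomyocyte markers examined were detected, with a summed level of 44700 to 50300 CPM (read counts scaled to library size) in old and 52700 to 59500 CPM in young hearts, which a preparation of cardiomyocytes would show too. All 7 endothelial, 7 fibroblast and 5 erythroid markers also passed the filter on low counts.

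Interferons are secreted signals of antiviral defence. Type I interferons bind the pair Ifnar1 and Ifnar2, which carry the kinases Tyk2 and Jak1, while interferon gamma binds Ifngr1 and Ifngr2, which carry Jak1 and Jak2. The activated kinases phosphorylate STAT proteins. After a type I signal Stat2 enters the nucleus in a complex with Irf9 and binds the interferon-stimulated response element (ISRE) of target genes, and after interferon gamma STAT dimers bind gamma-activated sites (GAS). In the heart the pathway is best known from viral myocarditis. Bulk RNA cannot tell a change in the number of cells of a type from a change in RNA per cell, which holds for every value given here.

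Stat2 had the highest rise of the 8 genes and is the one whose promoter carries an ISRE core (GAAA, any 2 bases, GAAA, searched on both strands). The 250 bases before its start, chr10:128270248-128270497 on the plus strand (RefSeq, GRCm38.p6), are shown first because the match lies in them, in capitals, 222 bases before the start.
Stat2: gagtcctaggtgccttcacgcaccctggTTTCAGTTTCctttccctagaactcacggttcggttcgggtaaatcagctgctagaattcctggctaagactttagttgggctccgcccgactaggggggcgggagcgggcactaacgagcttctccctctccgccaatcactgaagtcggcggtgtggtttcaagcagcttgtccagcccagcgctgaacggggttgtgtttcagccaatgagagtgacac

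The same 10 letters, on either strand, occurred in 71 of 27025 genes with a promoter in the table (0.263%, in windows from 250 bases before to 50 after the start). Interferon target genes that hold them are given with up to 10 flanking bases, capitals marking the match, so that the letters around it can be compared.
Gbp3: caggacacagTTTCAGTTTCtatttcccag
Gbp7: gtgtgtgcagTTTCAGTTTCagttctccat
Ifit1: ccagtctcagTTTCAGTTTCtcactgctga
Ifit3: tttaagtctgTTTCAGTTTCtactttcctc
Igtp: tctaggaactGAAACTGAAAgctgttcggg
Bst2: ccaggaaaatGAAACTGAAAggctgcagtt
Oas1a: tcgggaaatgGAAACTGAAAatct

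Of the genes with a promoter in the table, 4 of 22 in the list of ISRE targets and 3 of 15 in the list of GAS and Irf1 targets held these letters, and all are printed here. The looser core with any 2 bases in the middle was found in 1 of the 8 members, in 10 of 22 ISRE targets, in 6 of 15 GAS and Irf1 targets, in 11 of 20 interferon genes and in 3.99% of all genes with a promoter. The GAS core (TTC, any 3 bases, GAA, which reads as the same pattern on both strands) was found in Ifnar1, across its start, and in Ifnar2, against 9.55% of all genes. It was found in 7 of 15 GAS and Irf1 targets, 5 of 22 ISRE targets and 10 of 20 interferon genes. The other lists had it in 0 of 12 further chains, STATs and partners, 2 of 14 inhibitors and 3 of 21 other receptors. Ifnar2 is shown because its match lies before the start.
Ifnar2: tgccaaggccTTCCTGGAAgaagagagta

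Ifngr2, the member that fell, had neither core in its window, and the same held for Ifngr1, Jak1, Jak2 and Tyk2. The 250 bases before the start of Ifngr2, chr16:91546809-91547058 on the plus strand, are 74% G and C, against 56.8% for Stat2. Members that neither rose nor fell ranged from 54% (Ifnar2) to 80.8% (Jak2), on both sides of these values. The bases of Ifngr2 are shown because it is the member that fell.
Ifngr2: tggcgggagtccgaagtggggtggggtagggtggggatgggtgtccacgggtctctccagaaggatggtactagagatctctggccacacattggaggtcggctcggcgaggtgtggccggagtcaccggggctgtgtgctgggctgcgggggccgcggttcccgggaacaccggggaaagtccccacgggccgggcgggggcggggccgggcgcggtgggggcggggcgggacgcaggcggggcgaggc
A match describes the letters and does not show that a factor binds there.

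The libraries held 13624514 to 15525942 counts on named genes. Old 1 lay nearer to the young libraries on the first principal component (16.3, against 47.8 and 49.5 for old 2 and old 3 and −40.1 to −34.7 for the young libraries), so results that change without it are given both ways. The nuclear RNA Neat1 took 0.407%, 0.678% and 1.01% of counts in old 1, old 2 and old 3, against 0.324% to 0.36% in young hearts. Mitochondrially encoded transcripts took 18.4% to 27.6% of counts in old and 25.1% to 26.8% in young hearts. All log2 fold changes are old over young with an approximate SE and n = 3 per age. A gene is said to have risen or fallen when its adjusted p in edgeR's quasi-likelihood test, corrected by Benjamini-Hochberg over all 14413 genes tested, was under 0.05.

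Stat2 was 5.38-fold higher in old hearts, and Ifngr2 fell to 0.553 of the young level. The other receptor chains and the kinases did not pass the test. All 8 members passed the filter on low counts. Of these 1 rose and 1 fell, and 6 did not pass the test, with a median log2 fold change of −0.01. Among all genes tested 15.1% changed, 8.72% being higher and 6.36% lower, with a median of 0.02, so the number of members called (2 of 8) was near the background. The old and young libraries did not overlap for 3 members, Stat2, Ifngr2 and Jak1, against 37.3% of all genes tested.

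**Figure D1:**
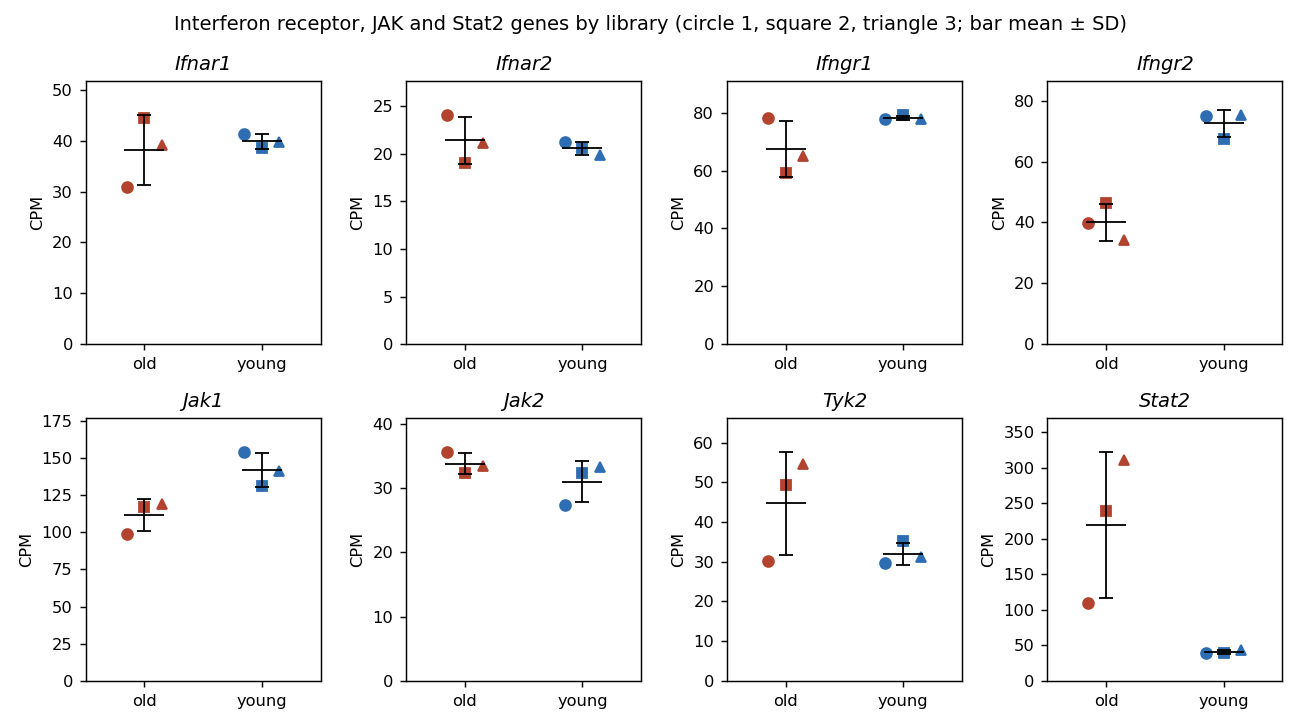
Normalised level (CPM, from 0) of each of the 8 genes in the 3 old and the 3 young libraries, with the mean and SD. Stat2 in old hearts lay at 109 to 311 CPM, above all young libraries (39.2 to 44), and Ifngr2 at 34.2 to 46.3 CPM, below all young libraries (67.4 to 75.2).

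Ifnar1 and Ifnar2 encode the chains of the type I receptor. Ifnar1 (ENSMUSG00000022967, chromosome 16, 91485238 to 91507441, GRCm38) had 30.8, 44.4 and 39.1 CPM in old 1, 2 and 3, against 41.4, 38.5 and 39.8 CPM in young 1, 2 and 3. The ages overlapped, with old 1 below and old 2 above every young library. Its log2 fold change was −0.07 ± 0.15 (edgeR adjusted p = 0.788), and the 95% interval (normal approximation) ran from −0.37 to 0.23.

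Ifnar2 (ENSMUSG00000022971, chromosome 16, 91372783 to 91405589) had 24, 19 and 21.1 CPM in old hearts, against 21.2, 20.6 and 19.8 CPM in young hearts. Here old 1 was the highest and old 2 the lowest of all 6 libraries, the reverse of their places for Ifnar1. The log2 fold change was 0.06 ± 0.14 (edgeR adjusted p = 0.808), with an interval from −0.22 to 0.33. Neither gene of the pair therefore differed by more than the spread between samples, and the intervals do not show that the ages were alike. Without old 1 both fold changes took the opposite sign (0.06 for Ifnar1 and −0.04 for Ifnar2). A model that joins Ifnar2 and the next gene, Gm21970, had no count in any library.

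The chains of the interferon gamma receptor behaved unlike each other. Ifngr1, the chain that binds the ligand (ENSMUSG00000020009, chromosome 10, 19591949 to 19610229), had 78.1, 59.3 and 64.9 CPM in old hearts, against 77.9, 79.1 and 78 CPM in young hearts. Old 1 was at the young level and old 2 and old 3 were below it. The log2 fold change was −0.22 ± 0.14 (edgeR adjusted p = 0.299). Without old 1 it was −0.34 and passed the test (edgeR adjusted p = 0.0219), where 37.9% of all genes passed; over all alternatives its adjusted p was 0.0219 to 0.554.

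Ifngr2, the chain that brings Jak2 to the receptor (ENSMUSG00000022965, chromosome 16, 91547072 to 91565623), fell. It had 39.8, 46.3 and 34.2 CPM in old hearts, against 75.1, 67.4 and 75.2 CPM in young hearts, so that every old library lay below every young one. The log2 fold change was −0.86 ± 0.14 (edgeR adjusted p = 0.00649), between −0.97 and −0.75 with any 1 library left out, and the call held in each of these fits. Ifngr2 was rank 348 of 14413 genes by p.

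Jak1, the kinase that both receptors share (ENSMUSG00000028530, chromosome 4, 101152367 to 101265282, minus strand), had 98.9, 117 and 119 CPM in old hearts, against 154, 131 and 141 CPM in young hearts. All old libraries were below all young ones, but the log2 fold change of −0.35 ± 0.13 did not pass (edgeR adjusted p = 0.109, and 0.0725 to 0.317 over the alternatives). Raver2, on the other strand, overlaps Jak1 and had 585 counts over all libraries, against 11239 for Jak1. Strand use in counting is not given in the sources used here, so reads from the shared stretch cannot be told apart.

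Jak2, the kinase of Ifngr2 and of many hormone and growth factor receptors (ENSMUSG00000024789, chromosome 19, 29251828 to 29313080), had 35.6, 32.3 and 33.5 CPM in old hearts, against 27.4, 32.3 and 33.3 CPM in young hearts. Apart from a low value in young 1, the libraries of both ages were alike. The log2 fold change was 0.12 ± 0.13 (edgeR adjusted p = 0.541), with an interval from −0.13 to 0.38.

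Tyk2, the kinase of Ifnar1 (ENSMUSG00000032175, chromosome 9, 21104068 to 21131243, minus strand), had 30.1, 49.4 and 54.5 CPM in old hearts, against 29.7, 35.1 and 31.3 CPM in young hearts. Old 2 and old 3 exceeded every young library and old 1 did not. The log2 fold change of 0.48 ± 0.21 did not pass (edgeR adjusted p = 0.143). Without old 1 it was 0.70 and passed (edgeR adjusted p = 0.00113), so the call depended on that library. With Ifngr1 and Tyk2 added, 4 of 8 members passed without old 1, against the 37.9% of all genes that passed there.

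Stat2 (ENSMUSG00000040033, chromosome 10, 128270559 to 128292849), which carries the type I signal into the nucleus, rose. It had 109, 239 and 311 CPM in old hearts, from 1779, 3370 and 4194 reads, against 39.2, 39.2 and 44 CPM in young hearts, from 571, 578 and 683 reads. The groups were far apart, and the old samples also differed widely among themselves, old 3 being 2.86-fold above old 1. The log2 fold change was 2.43 ± 0.32 (edgeR adjusted p = 0.00297), rank 124 of 14413 genes by p and rank 119 by size of the rise. It was 2.09 to 2.75 with any 1 library left out, and the call held in each of these fits and with DESeq2 and limma.

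The spread between samples was larger at the old age for most members, as it was for genes in general. The median SD of log2 CPM over genes was 0.28 in old and 0.14 in young hearts. Stat2 had a coefficient of variation of 46.6% in old and 6.71% in young hearts, and the counting error of its mean count was 1.79% in old and 4.05% in young hearts. For Tyk2 the coefficient of variation was 28.8% in old and 8.6% in young hearts. Ifngr1 was the most even gene in young hearts at 0.855%, below its counting error of 2.92%, and reached 14.3% in old hearts. Jak2 went the other way, with 5% in old and 10.1% in young hearts, and these differences in spread were not tested. For Stat2, Tyk2 and Jak1, of which Jak1 was lower in old than in young libraries, the order of the old libraries was old 1, old 2, old 3 from low to high, the order in which the share of Neat1 also increased. The part of RNA quality or of the number of leukocytes in this was not tested.

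Levels can be compared between genes only per gene length, for which the authors' deposited FPKM values (fragments scaled to transcript length and sequencing depth) were used. In old hearts Stat2 led with 47.9 ± 22.5 FPKM, followed by Ifngr1 at 22.6 ± 3.04, Jak1 at 14.8 ± 1.58, Ifngr2 at 11.6 ± 1.81 and Tyk2 at 9.27 ± 2.72 FPKM (SD, n = 3). Jak2 (6.42 ± 0.264), Ifnar1 (6.2 ± 1.17) and Ifnar2 (6.13 ± 0.659 FPKM) were the lowest, with overlapping ranges. Of the neighbours in this order, only the ranges of Ifngr1 and Jak1 were apart.

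In young hearts the order was Ifngr1 (26.4 ± 0.31 FPKM), Ifngr2 (21 ± 1.24), Jak1 (18.9 ± 1.51), Stat2 (8.9 ± 0.546), Tyk2 (6.65 ± 0.582), Ifnar1 (6.51 ± 0.246), Ifnar2 (5.92 ± 0.225) and Jak2 (5.91 ± 0.578 FPKM, SD, n = 3). Neighbouring ranges overlapped between Ifngr2 and Jak1, Tyk2 and Ifnar1, and Ifnar2 and Jak2. At both ages RNA of the chains of the gamma receptor was thus at higher levels than that of the type I receptor chains. Stat2 was above 93.2% of the 13170 genes with an FPKM value in old hearts and above 68.7% of them in young hearts. For Ifngr2 these shares were 74.1% in old and 85.7% in young hearts.

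**Figure D2:**
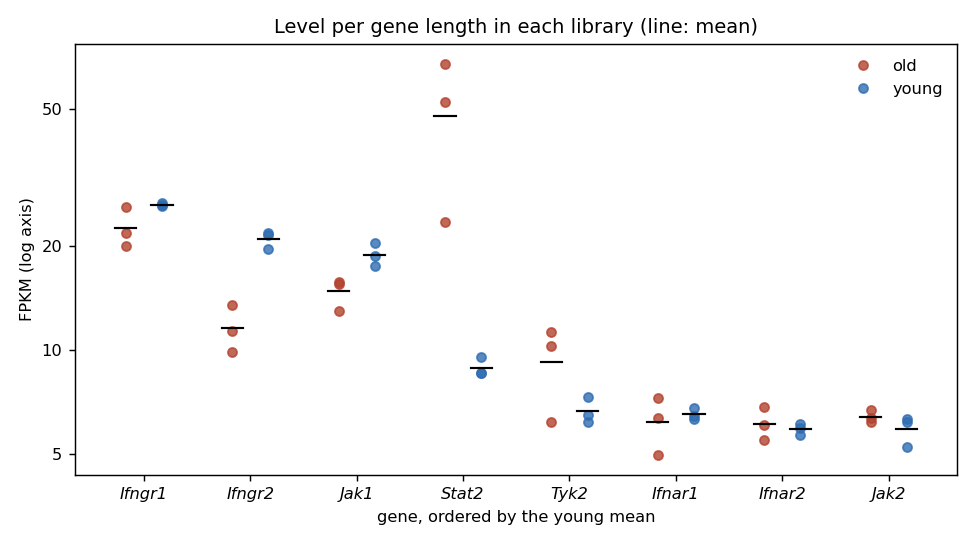
FPKM (log axis) of the 8 genes in each library, old left of young, with genes ordered by the young mean and a line at the mean of 3 libraries. Stat2 lies below Jak1 in young hearts at 8.9 FPKM and above every other member in the old mean at 47.9 FPKM, while Jak2, Ifnar1 and Ifnar2 lie between 4.96 and 7.28 FPKM in every library.

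Ratios between members within a library do not depend on how libraries are scaled. In all 7 ratios were compared with an exact two-sided permutation test, in which 3 against 3 allow no p under 0.1. The FPKM ratio of Ifngr1 to Ifngr2 was 2.29, 1.49 and 2.21 in old hearts, against 1.21, 1.37 and 1.21 in young hearts. Its log2 difference was 0.64, the ages did not overlap, and p was 0.1 by the exact permutation test (0.175 adjusted over the 7 ratios). RNA of the binding chain was thus in greater excess over that of its partner in all 3 old samples. This ratio contains Ifngr2 and is not independent of its fall.

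Among the kinases, the FPKM ratio of Tyk2 to Jak1 was 0.477, 0.661 and 0.717 in old hearts, against 0.302, 0.418 and 0.347 in young hearts. Jak2 to Jak1 gave 0.517, 0.396 and 0.404 in old hearts, against 0.256, 0.353 and 0.338 in young hearts. Both ratios were higher in every old sample than in any young one, with log2 differences of 0.79 and 0.48 (exact permutation p = 0.1, adjusted p = 0.175 each). Stat2 to Jak1 differed most, by 2.65 (exact permutation p = 0.1, adjusted p = 0.175). These ratios share Jak1, itself lower in every old library (98.9 to 119 CPM, against 131 to 154 CPM in young hearts). They are therefore not independent of each other.

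The ratios of Ifnar1 to Ifnar2 (0.727, 1.32 and 1.05 in old hearts, against 1.11, 1.06 and 1.14 in young hearts), of Ifnar1 to Ifngr1 and of Tyk2 to Jak2 overlapped between the ages. Their log2 differences were −0.13, 0.14 and 0.31, with exact permutation p values of 0.7, 0.7 and 0.4 (0.7, 0.7 and 0.56 adjusted). For Ifnar1 over Ifnar2 the SD on the log2 scale was 0.44 in old and 0.05 in young hearts, old 1 and old 2 standing on opposite sides of the young values.

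**Figure D3:**
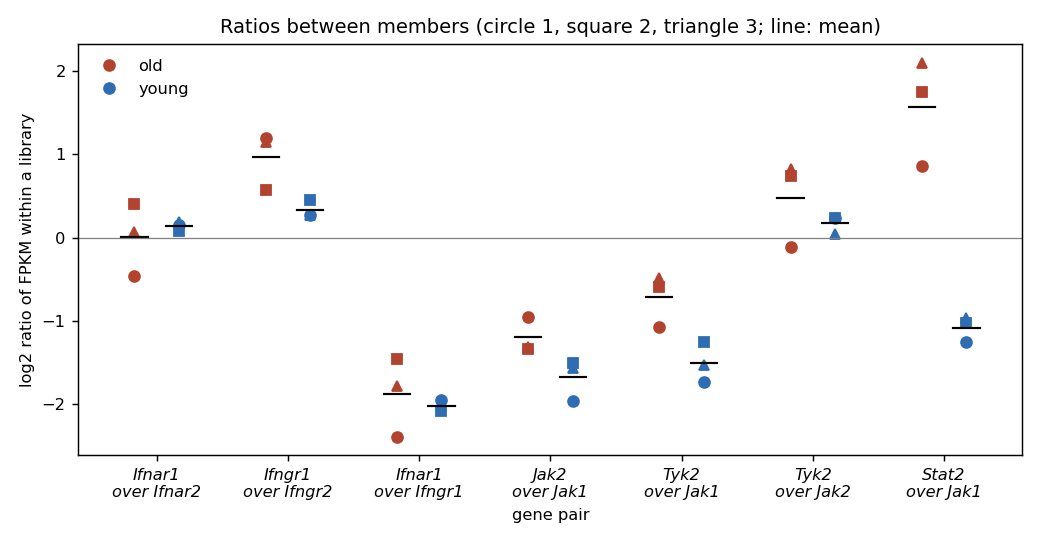
Log2 ratio of FPKM within each library for 7 pairs of members, old left of young, with a line at the mean. The old and young points do not overlap for Ifngr1 over Ifngr2, Jak2 over Jak1, Tyk2 over Jak1 and Stat2 over Jak1, and overlap for the other 3 pairs.

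Ifnar2, Ifnar1 and Ifngr2 lie within 193 kb of each other on chromosome 16, a position that the choice of members did not use. Il10rb, the gene of a chain shared by the receptors of interleukin 10 and interferon lambda, lies between Ifnar2 and Ifnar1. Along this stretch Ifnar2, Il10rb (−0.13 ± 0.13, edgeR adjusted p = 0.537) and Ifnar1 did not pass. Ifngr2 and the next 3 genes fell, Tmem50b with −0.79 ± 0.15 (edgeR adjusted p = 0.00942), Dnajc28 with −0.88 ± 0.14 (0.00487) and Gart, an enzyme of purine synthesis, with −0.81 ± 0.21 (0.0295). Son, a splicing factor gene beyond them, rose by 0.57 ± 0.15 (edgeR adjusted p = 0.0351). Among all genes tested 8.72% rose and 6.36% fell, and whether neighbours changed together was not tested.

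Dnajc28 had 14.4, 17 and 14.3 CPM in old hearts, against 28.5, 26.7 and 29 CPM in young hearts, and Tmem50b 22, 25 and 22.4 CPM in old hearts, against 46.9, 36.2 and 36.9 CPM in young hearts. Both were lower in every old sample, as Ifngr2 was. Calls that ended with 1 library left out were those of Tmem50b (without young 1, edgeR adjusted p = 0.054), Gart (without old 2, old 3 or any young library, 0.0644 to 0.115) and Son (without old 2, old 3 or any young library, 0.0555 to 0.17). Son also missed the threshold with the replicate number as a block (edgeR adjusted p = 0.0614). Donson (0.63 ± 0.21), Cryzl1 (−0.01 ± 0.14) and Itsn1 (0.04 ± 0.12), the tested genes further on within 250 kb, did not pass (edgeR adjusted p = 0.0693, 0.975 and 0.848). Donson passed without old 1 (0.0135). Son and Donson overlap in the annotation, so their reads may be shared.

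**Figure D4:**
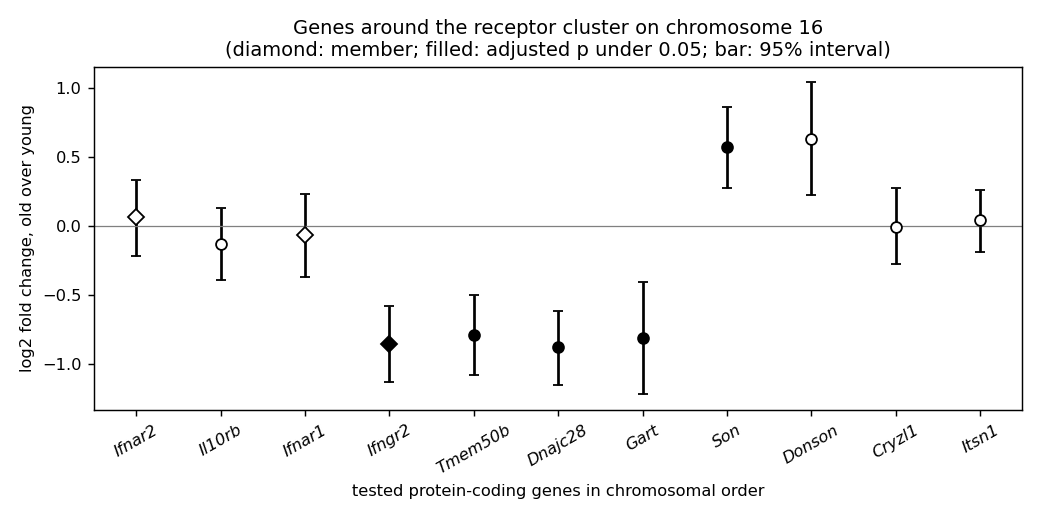
Log2 fold change of old over young, with a 95% interval (normal approximation), of the tested protein-coding genes around the receptor cluster in their order along chromosome 16. Filled symbols passed the test: Ifngr2, Tmem50b, Dnajc28 and Gart lie between −0.88 and −0.79, and Son lies at 0.57.

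Genes whose profile over the 6 libraries was most like that of a changed member were taken by the smallest root mean square difference of log2 CPM, each profile being centred on its young mean, among 12419 genes. For Stat2 these were Gbp6 (0.049 log2 units), Nlrc5 (0.132), Igtp (0.198) and Gbp3 (0.213). Gbp6, Gbp3 and Igtp encode interferon-inducible GTPases and Nlrc5 a regulator of class I antigen presentation genes, and all belong to the list of GAS and Irf1 targets. Gbp6 had 81.3, 163 and 216 CPM in old hearts, against 27.8, 28.3 and 32.5 CPM in young hearts. Guanylate-binding protein genes resemble each other, and how reads shared between copies were counted is not given, so their values are uncertain.

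For Ifngr2 the nearest were Ckm (0.049 log2 units), the muscle creatine kinase, Prkaca (0.062), the catalytic subunit of protein kinase A, its chromosomal neighbour Dnajc28 (0.071) and Gramd1b (0.076). Ckm had 598, 713 and 523 CPM in old hearts, against 1120, 1030 and 1060 CPM in young hearts, and its call ended without young 1 (edgeR adjusted p = 0.0561). The cardiomyocyte markers gave 1 gene higher and 3 lower of 8 tested, against 8.72% and 6.36% of all genes. Myh6, the main adult myosin heavy chain of mouse heart, had 14700, 14100 and 11600 CPM in old hearts, against 24700, 21400 and 21700 CPM in young hearts, and Actc1 and Pln fell too, while Myl2 rose. The markers thus did not move together (of these calls, that of Actc1 held with any 1 library left out), and their part in the fall of Ifngr2 was not tested.

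The interferon genes themselves were all but absent from the counts. Of the 21 on the list, 15 had no read in any library, and the other 6 together had 11 reads in old hearts and 4 in young hearts, with at most 4 reads in a library for any of them. Ifnb1 had 1 read in old 1 and 1 in young 3, and Ifng had 1 read in old 2 and 1 in young 3. None was tested, and at this depth a difference in their RNA was not detectable.

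Of 13 tested genes for other receptor chains, STATs and partners, 2 rose and 0 fell, against 8.72% and 6.36% of all genes, and the median log2 fold change was 0.16. Irf9, the DNA-binding partner of Stat2, had 67.7, 91.9 and 129 CPM in old hearts, against 32.7, 30.8 and 30 CPM in young hearts. Its order of old libraries was again old 1, old 2, old 3, and the log2 fold change was 1.63 ± 0.22 (edgeR adjusted p = 0.00296). Prkcd, a kinase that acts on STAT proteins, rose by 0.86 ± 0.21 (edgeR adjusted p = 0.0242). That call ended without old 2, old 3 or any 1 young library (0.0532 to 0.111). Stat5a, which serves growth hormone and prolactin receptors, had −0.47 ± 0.15 (edgeR adjusted p = 0.0601) and passed without old 1 (−0.55, 0.0111) and with upper-quartile factors (−0.51, 0.0472). Jak3 (0.24 ± 0.18, edgeR adjusted p = 0.387) and Stat3 (0.25 ± 0.15, 0.288) did not pass either, though Jak3 passed without old 1 (0.42, 0.00662). Without old 1 the list had 6 genes higher and 2 lower, in a fit where 37.9% of all genes passed.

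Of 23 inhibitors of the pathway 3 rose and 1 fell, with a median of 0.06, shares near the 8.72% and 6.36% of all genes. Usp18, which binds Ifnar2 and blocks its signal, had 23.4, 28.9 and 70.7 CPM in old hearts, against 7.28, 7.05 and 8.18 CPM in young hearts (2.44 ± 0.38, edgeR adjusted p = 0.00506). Every old sample exceeded every young one, old 3 by the widest margin. The leukocyte phosphatases Ptprc (1.26 ± 0.16, edgeR adjusted p = 0.0028) and Ptpn6 (0.97 ± 0.18, 0.00967) rose too, Ptpn6 being named because it completes the count. The call of Ptpn6 ended without young 1 (0.0565) or young 3 (0.0627). Ptprc also marks leukocytes in general. Cbl, a ubiquitin ligase of tyrosine kinase signalling, fell by 1.82 on the log2 scale (SE 0.28, edgeR adjusted p = 0.00494). The feedback inhibitors Socs1 (0.72 ± 0.44, edgeR adjusted p = 0.291) and Socs3 (1.06 ± 0.34, 0.0657) did not pass, though Socs3 did with DESeq2 (adjusted p = 0.0158) and with no filter on low counts (edgeR, 0.00688). Without old 1, where 37.9% of all genes passed, 5 inhibitors were lower.

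Of 30 ISRE targets 27 rose and 0 fell, the median log2 fold change being 2.21, and of 20 GAS and Irf1 targets 16 rose and 0 fell, with a median of 1.57. Over all genes 8.72% rose and the median was 0.02. Irf7, a transcription factor of interferon production, had 206, 279 and 482 CPM in old hearts, against 30.9, 32.6 and 30.9 CPM in young hearts (3.36 ± 0.29, edgeR adjusted p = 0.000886). Rtp4 (2.31 ± 0.23) and the viral tether Bst2 (2.35 ± 0.25) followed by p (edgeR adjusted p = 0.00142 each). Oas3, among those that rose, had 0.137 to 0.386 CPM in young hearts. It passed the filter on low counts only through the old libraries. Rsad2, Dtx3l and Trim25 did not pass. Without old 1 Rsad2 (1.11, edgeR adjusted p = 0.00706) and Trim25 (0.56, 0.00728) did, and Rsad2 also with DESeq2 (0.0143) and with no filter (0.00439). Dtx3l, with a log2 fold change of −0.56 ± 0.22, was the single ISRE target with a value below 0. The count of ISRE targets that rose was 15 without young 1 and 17 without young 2. Over all genes 355 and 350 rose in these fits, against 1257 with all libraries. Dtx3l was lower without old 3 (−0.85, edgeR adjusted p = 0.0379).

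Among the GAS and Irf1 targets the smallest p values belonged to Psmb8 (2.13 ± 0.22, edgeR adjusted p = 0.00142), Cd274 (1.91 ± 0.21, 0.00165) and Psmb9 (1.46 ± 0.17, 0.00179). Psmb8 and Psmb9 encode subunits of the immunoproteasome, and Cd274 encodes a ligand of PD-1, a receptor on T cells. Irf1, Ciita, Cxcl10 and Serping1 did not pass, and Irf1 did without old 1 (0.55, edgeR adjusted p = 0.0131). ISRE targets summed to 1560, 1920 and 3930 CPM in old 1, 2 and 3, against 564 to 623 CPM in young hearts, and GAS and Irf1 targets to 893, 1190 and 1470 CPM, against 396 to 459 CPM. Both sums increased in the order old 1, old 2, old 3, as Stat2 did, but many single genes did not. Of the genes with the smallest p, Irf7, Bst2 and Cd274 had this order. Rtp4 (47.6, 43.3 and 76.6 CPM), Psmb8 (51.1, 90.9 and 83.7) and Psmb9 (28.1, 40.3 and 34.1) did not.

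Other receptors that use these kinases changed in part. Of 23 tested 8 rose and 0 fell, against 8.72% and 6.36% of all genes, with a median of 0.53. Osmr, the receptor of oncostatin M, had 78.7, 92.6 and 91.1 CPM in old hearts, against 30.1, 37.6 and 35.9 CPM in young hearts (1.34 ± 0.14, edgeR adjusted p = 0.00142). Csf3r (1.75 ± 0.24, edgeR adjusted p = 0.00339) and Csf2rb (1.25 ± 0.22, 0.00764), receptors of myeloid growth factors, rose as well. Il7r, also among those that rose, had at most 0.344 CPM in young hearts and passed the filter on low counts only through the old libraries. The common chain Il6st (0.15 ± 0.14, edgeR adjusted p = 0.497) and the growth hormone receptor gene Ghr (−0.38 ± 0.14, 0.0919) did not pass, and Ghr did without old 1 (−0.45, 0.0162). With 1 library left out, 3 to 11 genes of this list rose. There were 4 without young 1, 5 without young 2, 3 without young 3 and 5 without old 3. Over all genes 355, 350, 393 and 598 rose in these fits, in the same order, against 1257 with all libraries. Without old 1, 2 genes of the list were lower, in a fit where 37.9% of all genes passed.

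**Figure D5:**
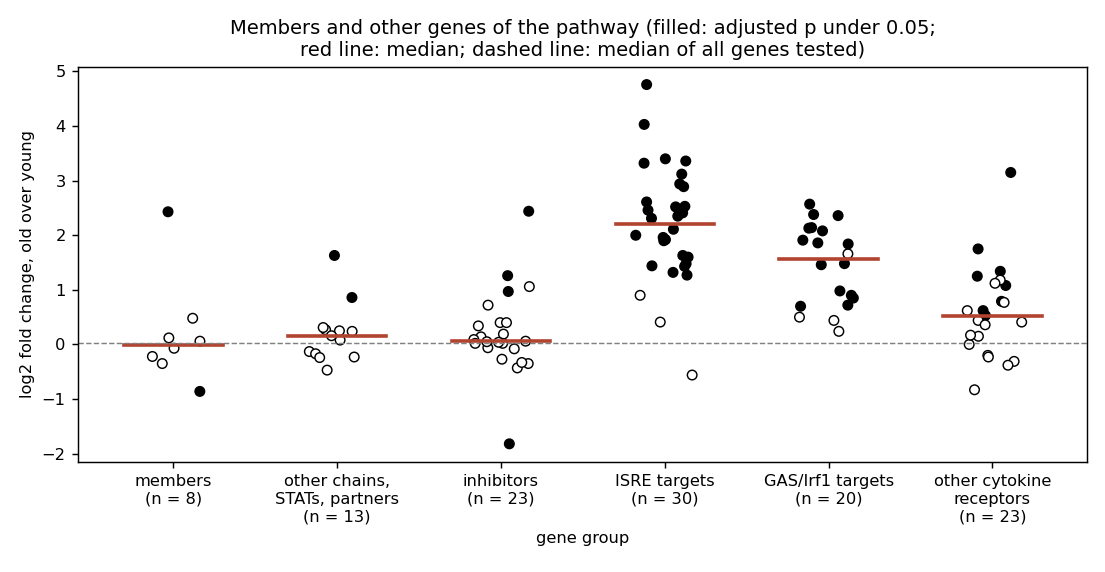
Log2 fold change of old over young for the 8 members and for the tested genes of 5 lists, with the median of each (red) and of all genes tested (dashed). The medians are −0.01 for the members, 2.21 for ISRE targets and 1.57 for GAS and Irf1 targets.

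Markers of leukocytes moved in the same samples. Among all genes tested 8.72% rose and 6.36% fell. Of 14 macrophage and monocyte markers tested 7 rose and 0 fell, and their sum was 561 to 867 CPM in old and 381 to 468 CPM in young hearts. Fcgr1, among those that rose, is also on the list of GAS and Irf1 targets. Of 6 pan-leukocyte markers 4 rose, with a sum of 115 to 132 CPM in old and 60.7 to 68.4 CPM in young hearts. Of 9 lymphocyte markers tested 1 rose (sum 19.7 to 27.5 CPM in old and 17.7 to 21.3 CPM in young hearts). Of 2 neutrophil markers tested both rose (sum 3.4 to 11.7 CPM in old and 1.09 to 1.61 CPM in young hearts), while Ly6g, Elane and Camp had no read. The neutrophil marker S100a8, the lymphocyte marker Trbc1 and the monocyte marker Ly6c2 had at most 0.543 CPM in any young library. They passed the filter on low counts only through the old libraries, so a fall could hardly have been seen. S100a9, the other neutrophil marker tested, had 1.17, 0.407 and 1.29 CPM in young 1, 2 and 3, and it too needed the old libraries to pass. Both neutrophil calls thus came from genes let in by the group where they are high. The macrophage sum was 867, 561 and 575 CPM in old 1, 2 and 3, of which Lyz2 alone gave 345, 179 and 145 CPM. The order of the old libraries differed between leukocyte markers, Ptprc having 18.6, 25.4 and 24.2 CPM. Of 7 endothelial markers 3 fell, with a sum of 1070 to 1230 CPM in old and 1440 to 1570 CPM in young hearts. Of 7 fibroblast markers 1 fell (sum 540 to 1280 CPM in old and 840 to 1140 CPM in young hearts), and likewise 1 of 7 smooth muscle and pericyte markers (650 to 1070 CPM in old and 928 to 1180 CPM in young hearts) and 1 of 5 erythroid genes (455 to 1210 CPM in old and 928 to 981 CPM in young hearts). A single call in a list this short does not stand out from the shares of all genes. The part of these cells in the values of the 8 members was not tested.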

How the data were processed

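Total RNA of 3 old and 3 young heart samples was sequenced. Per the submitters' processing notes, the authors used HISAT2, featureCounts (Subread) and build GRCm38.p6. Tool versions, annotation release and handling of strand or multi-mapped reads: not given in the sources used. The deposited counts are whole reads per gene. The authors' deposited FPKM values cover 13170 genes, and how they were scaled is not given; against the count totals, their scale differed by up to −9.64% from that of young 1 (old 1).

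Gene models without a name (571, at most 0.368% of a library) were left out. The test was the quasi-likelihood F test of edgeR 4.0.16 (R 4.3.3) after filterByExpr, with TMM factors; limma 3.58.1 and DESeq2 1.42.0 served the alternatives. CPM use TMM-scaled library sizes. Each SE was derived as |log2 fold change| over the root of the F statistic. Within-library ratios were compared by exact permutation. Scripts were tested on simulated data. Coordinates are from GENCODE M21 (GRCm38) and promoters from RefSeq (GRCm38.p6).

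The members and lists were chosen with earlier results of these data known. The genes named are the members, the 3 genes of each list with the smallest p, the 4 genes nearest in profile to each changed member and the neighbours of the receptor cluster; other genes were named after their values were seen. Other settings tried were DESeq2, limma-voom, size factors by RLE or upper quartile, stricter and looser filters, FPKM values with limma-trend, a replicate block, and the omission of single libraries.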

Additional observations from a re-analysis of the deposited data

How the results depend on the processing

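Stat2 and Ifngr2 kept their direction and their call in all 15 alternatives. With 1 library left out, the number of genes that passed ranged from 539 to 5570 (350 to 2961 higher and 184 to 2609 lower), and that of members from 2 to 4. In those fits the log2 fold change ranged from −0.19 to 0.06 for Ifnar1, −0.04 to 0.13 for Ifnar2, −0.34 to −0.13 for Ifngr1 (call gained without old 1), 0.31 to 0.70 for Tyk2 (call gained without old 1) and −0.10 to 0.04 for Cryzl1. The difference in log2 ratio ranged from −0.33 to 0.10 for Ifnar1 over Ifnar2 and from −0.07 to 0.40 for Ifnar1 over Ifngr1. Itsn1 was at 0 with upper-quartile factors, against 0.04. The cause was not tested. The remaining members, Jak1 and Jak2, kept their direction and did not pass in any alternative.

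No label ties samples of the same replicate number. The correlation of deviations between samples with the same number was −0.09, −0.07 and 0.03, and between samples with different numbers −0.1 to 0.15. No pairing by number was thus seen, and 3 samples per age are too few to exclude one. With the replicate block 1774 genes passed and the calls of all 8 members were as without it (Ifngr2 −0.86, Stat2 2.31). Interferon genes had too few reads to be tested.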
